A study of Mus musculus with 6 samples.

Results

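The genes described here are the mouse Wnt ligands, the Frizzled receptors and the Sfrp and Dkk families of secreted Wnt inhibitors, measured by RNA-seq in infarcted hearts. Members were all protein-coding genes whose symbol begins with Wnt, Fzd, Sfrp or Dkk followed by a digit, which gave 35 of the 26012 genes listed (17494 of them protein coding). They comprised 18 Wnt ligands, 10 Frizzleds, 4 Sfrps and 3 Dkks. Frzb, also called Sfrp3, falls outside this symbol rule and is described with the other pathway genes. A mean normalized count of at least 1 over the 6 hearts was reached by 29 members (13 Wnt ligands, all 10 Frizzleds, all 4 Sfrps and 2 Dkks). These 29 were tested, and a mean of at least 10 was reached by 24 of them. Dkk1, Wnt7b, Wnt8a, Wnt8b and Wnt10a stayed between a mean of 0.172 and 0.663, and Wnt3a was listed at 0 in all 6 hearts. These 6 members were not tested.

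The hearts came from male C57BL/6 mice, 8 weeks old, in which the left anterior descending coronary artery was ligated to cause myocardial infarction (MI). Each heart also received 10 µg of a miRNA mimic by injection into the heart, a mimic being a synthetic RNA duplex that is used by the cell like the mature miRNA. The control group (n = 3) received a control mimic and the treated group (n = 3) received miR-19a/miR-19b mimic, and ventricles were taken at day 4 after MI. All 6 hearts thus carried an infarct and an injected mimic, and no value here is of an uninjured heart. Polyadenylated RNA of whole ventricular tissue was sequenced, so a lower level cannot be told apart from a smaller number of the cells that make the transcript. The question the comparison addresses is which transcripts differ when miR-19a/19b is raised in the infarcted heart.

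Wnts are lipid-modified secreted glycoproteins that bind Frizzleds, a family of receptors that span the membrane several times. With Lrp5 or Lrp6 as coreceptor, a Wnt stabilizes beta-catenin, which enters the nucleus and acts with Tcf and Lef factors, whereas other Wnts signal through planar polarity or calcium branches. Sfrps carry a Frizzled-like domain that binds Wnts outside the cell, and Dkk1 and Dkk2 bind the Lrp coreceptors. In the adult heart the pathway is quiet, and after infarction its components are known from fibroblasts, endothelium and the epicardium of the injured wall.

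miR-19a and miR-19b share their seed, the bases that pair with target transcripts. The mature mouse sequences below are from RefSeq (GRCm38.p6), 5′ to 3′, with the seed (bases 2 to 8) in capitals. They are shown because every seed match described here derives from them, and they differ by the single substitution U11C, counted from the 5′ end of miR-19a.
miR-19a-3p: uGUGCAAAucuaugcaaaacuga
miR-19b-3p: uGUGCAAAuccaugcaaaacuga
Mir19a lies on chromosome 14 (GRCm38.p6, chr14:115044048-115044070, plus strand, for the mature arm). miR-19b is encoded by Mir19b-1 (chr14:115044358-115044380, plus strand) and Mir19b-2 (chrX:52741991-52742013, minus strand).

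The transcripts of 7 of the 29 tested members (24.1%) held a match to this seed in their longest annotated 3′ UTR. On the sense strand, TTTGCACA (the 8-mer), TTTGCAC and TTGCACA were searched, the last 2 being 7-mers contained in the 8-mer. Of all 15866 tested genes with an annotated 3′ UTR, 19.3% held a match and 5.81% held the 8-mer. The 3′ UTRs of the members had a median length of 1908 bases, against 1261 over all genes. Wnt9a carried 2 copies of the 8-mer and Sfrp4 carried 1, so the 8-mer was present in 2 of 29 members (6.9%). Fzd4, Fzd8, Dkk3 and Wnt5b each carried a single 7-mer and Wnt1 carried 2. Wnt7b, which was not tested, also held an 8-mer. The matches are printed below with their surroundings for the members with a mean of at least 10, apart from Fzd8, in the sense of the transcript and with the match in capitals (GENCODE M21, GRCm38). A match is a run of letters in an annotated 3′ UTR and was not tested for binding.
Wnt9a, first match (chr11:59331404-59331429, plus strand): ggtgtggacTTTGCACAcagcaccag
Wnt9a, second match (chr11:59331487-59331512, plus strand): agtgtaggcTTTGCACAtagtgcaaa
Sfrp4 (chr13:19631990-19632015, plus strand): tgagactttTTTGCACAcagagcact
Fzd4 (chr7:89409092-89409116, plus strand): tttttttttTTTGCACtgcagcatg
Dkk3 (chr7:112117153-112117177, minus strand): aattgaaagTTGCACAcatttgtat
Wnt5b (chr6:119432665-119432689, minus strand): aagtgcctgTTGCACAggacaggaa

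The reads on genes came to at least 19398196 and at most 23645308 in a heart, and the hearts of a group were not equally alike. The number 3 heart of the miR-19a/19b group stood apart, with a chi-square per degree of freedom of 121 and 135 against the other hearts of its group, where other pairs within a group gave 10.3 to 26.6. All 6 cardiomyocyte markers were lowest in that heart, with a summed normalized count of 261847 against 427053 to 769180 in the others, and mitochondrial transcripts were 3.18% of its reads against 4.18% to 6.93%. In miR-19a/19b mimic heart 1, 5 skeletal muscle genes summed to 1980, against 20.5 to 57.1 elsewhere. In control heart 2, 5 of 6 epicardial and mesothelial markers were lowest, with a summed count of 598 against 985 to 1233. Values without miR-19a/19b mimic heart 3 are given beside each named gene whose estimate changed sign without it and beside several others.

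Across the 29 tested members, the miR-19a/19b mimic and control groups were not separated. With limma on log2(normalized count + 1), no member was called at an adjusted p under 0.05 (background 0% of 21126 genes), and the smallest adjusted p among members was 1. At an unadjusted p under 0.05 the count was 2 lower (Sfrp1 and Wnt11) and 0 higher, where 2.63% of all genes were lower and 1.39% higher. For 0 of 29 members did the 3 treated hearts lie wholly above or below the 3 control hearts, against 9.2% of all genes (5.3% lower and 3.9% higher). DESeq2 on the recovered reads called 28 genes lower and 1 higher over the whole table, none of them a member. The quasi-likelihood test of edgeR called no gene of the whole table, and so no member. The median log2 fold change of the members was -0.01, against 0.00 over all genes, with 16 estimates below zero, 13 above, and a range from -0.55 (Wnt7a) to 0.82 (Wnt9b). The median size of the log2 fold change without its sign was 0.14, equal to the 0.14 of all genes.

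**Figure D1:**
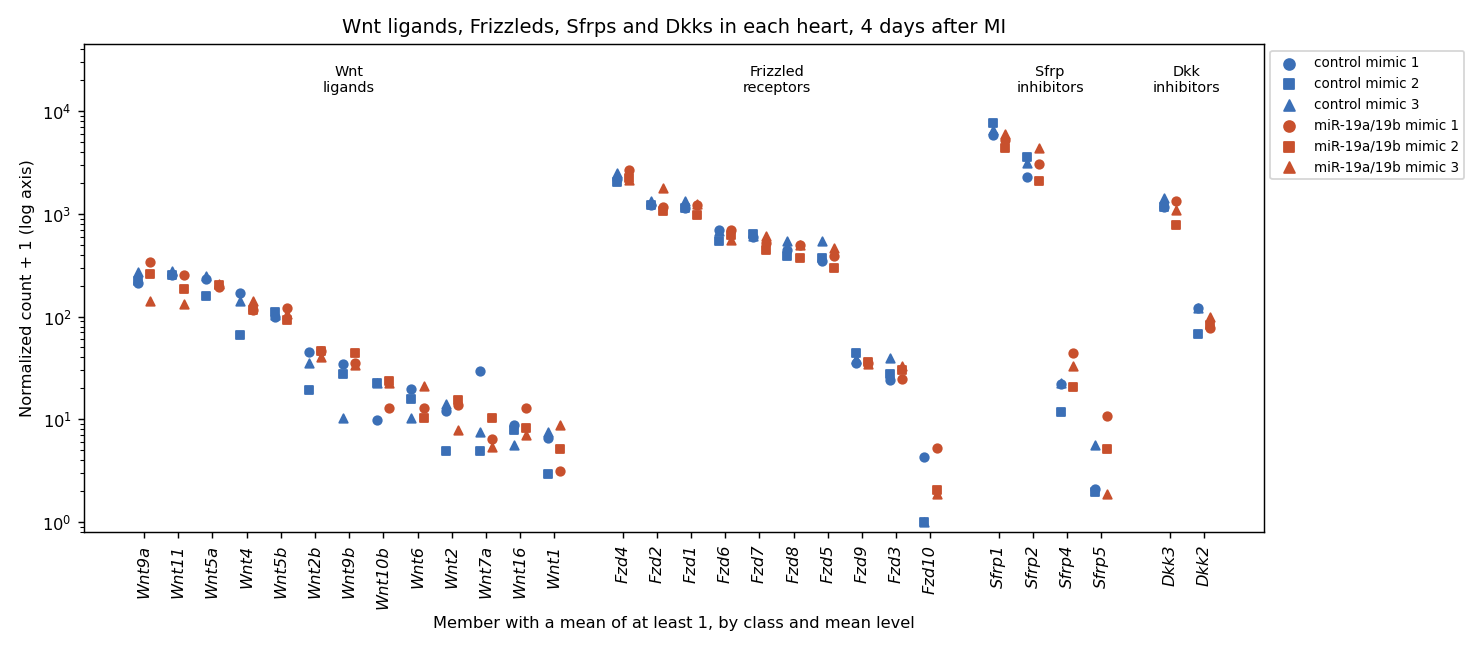
Normalized count plus 1 (log axis) of the 29 members with a mean of at least 1 in each heart, control mimic in blue and miR-19a/19b mimic in red, with the marker shape giving the replicate number. The means run from 1.59 (Fzd10) to 5936 (Sfrp1), and for 0 of 29 members are the groups without overlap.

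How tightly a difference was bounded mostly followed the depth of each member. An exception was Sfrp2, at a mean of 3077, with a wider log2 interval (-0.55 to 0.64) than Fzd9, at a mean of 36.3 (-0.63 to 0.35). The 95% interval of the fold change lay within 2-fold in both directions for 19 of 29 members, and within 1.5-fold for 8 (Fzd1, Fzd2, Fzd4, Fzd6, Fzd7, Fzd8, Wnt5a and Wnt5b). Members with a mean between 100 and 1000 had a median interval of 1.32-fold to either side of the estimate (9 members), and those with a mean between 1 and 10 had one of 2.8-fold (5 members). For Wnt1, Wnt2, Wnt7a, Sfrp5 and Fzd10 the interval was wider than 2-fold to either side, so a difference of 2-fold was not detectable at this depth.

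**Figure D2:**
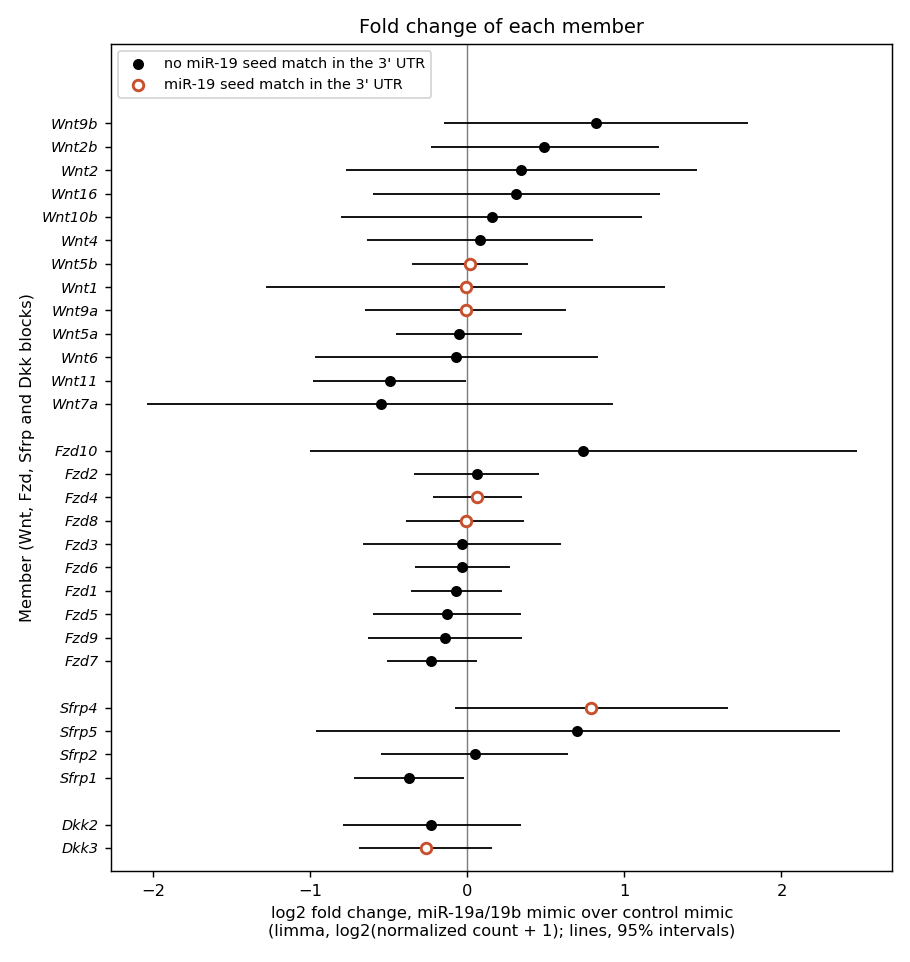
Log2 fold change of miR-19a/19b mimic over control mimic for the 29 tested members, with 95% intervals from limma; open red points mark members with a miR-19 seed match in the 3′ UTR. All intervals cross 0 except those of Sfrp1 (-0.72 to -0.02) and Wnt11 (-0.98 to -0.01), which are not adjusted for the number of genes.

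To compare levels between genes, normalized counts were divided by exon length. Per kilobase, the soluble inhibitors were the most abundant family, with an Sfrp sum of 2803 ± 575 (SD, n = 6) and a range from 1977 to 3431. The Frizzleds summed to 1471 ± 134, the Dkks to 370 ± 69.6 and the Wnt ligands to 264 ± 31.7 per kilobase. In each heart the Sfrp sum exceeded the Wnt sum, by 7.65-fold in miR-19a/19b mimic heart 2, which was the lowest, and by 15.6-fold in miR-19a/19b mimic heart 3. Sfrps exceeded Frizzleds and Frizzleds exceeded the other families in all 6 hearts. The Dkk sum exceeded the Wnt sum in 5 hearts and was 253 against 258 in miR-19a/19b mimic heart 2.

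Within each family a few genes made most of the transcript. Sfrp2 (1429 ± 393 per kilobase, SD, n = 6) and Sfrp1 (1358 ± 260) were at the top and did not differ beyond their spread. Together they left 0.519% of the Sfrp sum to Sfrp4 and 0.0732% to Sfrp5. Frzb (Sfrp3), which the symbol rule leaves out of this sum and its shares, stood at 366 ± 70.7 per kilobase. Sfrp4 stood at 14 per kilobase with the listed exon length and at 5.9 with the longer GENCODE M21 exons, where it made up 0.211% of the summed means. Dkk3, a divergent Dkk that is not an established Lrp5 or Lrp6 ligand, made up 93% ± 1.61 of the Dkk sum. Fzd2 (354 ± 68.9 per kilobase), Fzd4 (341 ± 35.8) and Fzd1 (280 ± 29.1) led the receptors, followed by Fzd6 (153 ± 16.2), Fzd8 (136 ± 20.7) and Fzd7 (125 ± 15.3). Neighbours in this order differed by less than the sum of their SDs, except between Fzd1 and Fzd6. Within each heart, Fzd4 was above Fzd1. The listed exon length sets the place of Fzd8, which stood at 76.3 ± 11.6 with the longer GENCODE M21 model, below Fzd7 (125 ± 15.3 with either length) by more than the sum of their SDs. The related receptors Fzd1, Fzd2 and Fzd7 held 51.6% ± 3.54 of the Frizzled sum (54.8% of the summed means with GENCODE M21 lengths).

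The ligands were low beside their receptors. Wnt9a stood at 72.3 ± 19.9 per kilobase (SD, n = 6), Wnt11 at 54.6 ± 13.3, Wnt5b at 39.4 ± 3.73, Wnt4 at 29.7 ± 8.46 and Wnt5a at 26.4 ± 3.88, each within the summed SD of its neighbour. Within each heart, Wnt9a was above Wnt11 with the listed lengths. These 5 ligands made up 84.1% ± 3.21 of the Wnt sum. Wnt11, Wnt5a and Wnt5b are the members best known for signalling without beta-catenin. Wnt3a and Wnt8a, which are standard activators of the beta-catenin branch, were among the untested members, and Wnt1 had 1.97 ± 0.994 per kilobase.

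**Figure D3:**
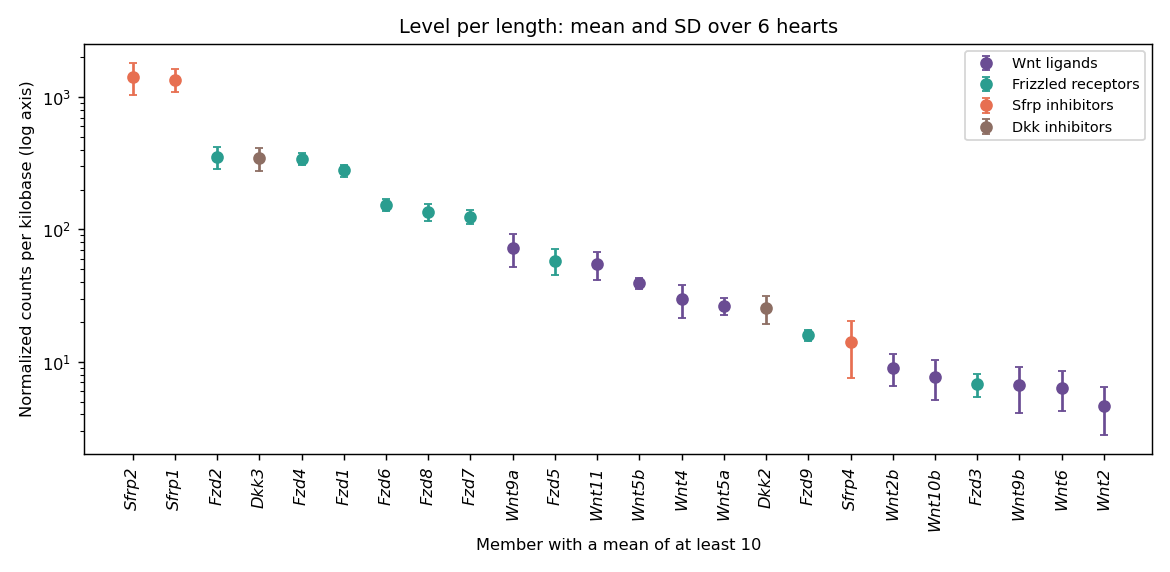
Normalized counts per kilobase of exon (log axis) for the 24 members with a mean of at least 10, as mean and SD over 6 hearts, coloured by family. Sfrp2 and Sfrp1 lie above 1000 per kilobase, the leading Frizzleds and Dkk3 between 280 and 354, and the leading ligand Wnt9a at 72.3.

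Among the ligands, Wnt11 had the lower estimate with an unadjusted p under 0.05. Wnt11 (ENSMUSG00000015957, chr7:98835112-98855195, plus strand) acts in heart development and signals mainly without beta-catenin. Its normalized counts were 252, 253 and 277 in the control hearts and 255, 186 and 133 in the miR-19a/19b mimic hearts. The control hearts were close together, treated heart 1 lay among them, and treated hearts 2 and 3 lay below, so the groups overlapped. Its log2 fold change was -0.49 (SE 0.22, 95% interval -0.98 to -0.01, n = 3 per group), with an adjusted p = 1 from limma. Without miR-19a/19b mimic heart 3 the log2 fold change was -0.26, and without miR-19a/19b mimic heart 1 it was -0.73. Over the 15 alternatives its adjusted p was between 0.497 and 1. A processed pseudogene overlaps Wnt11 on the other strand, and the counting is not stated to use strand.

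Wnt9a (ENSMUSG00000000126, chr11:59306928-59333552, plus strand) is the ligand with 2 copies of the 8-mer seed match and the highest ligand level per kilobase. Its normalized counts were 212, 221 and 273 in the control hearts and 339, 259 and 142 in the treated hearts. Treated heart 1 was the highest of all 6 and treated heart 3 the lowest, and the control values lay between them. Its log2 fold change was -0.01 (SE 0.28, 95% interval -0.65 to 0.63) and became 0.34 without miR-19a/19b mimic heart 3. Wnt5b (ENSMUSG00000030170), with 1 seed match, had counts of 97.3, 111 and 102 in control hearts and 119, 91.8 and 105 in treated hearts. Its groups overlapped fully, with a log2 fold change of 0.02 (SE 0.16), and its interval of -0.35 to 0.39 was the narrowest of the ligands.

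The 2 ligands with the largest higher estimates were low in abundance. Wnt9b (ENSMUSG00000018486, chr11:103727364-103749821, minus strand), known from kidney development and from cardiac endothelium, had normalized counts of 33.2, 26.3 and 9.34 in control hearts and 34.4, 43.3 and 32.8 in treated hearts. Control heart 3 was the lowest and the other 5 hearts lay between 26.3 and 43.3. Its log2 fold change of 0.82 (SE 0.43) had an interval of -0.15 to 1.79 and became 0.30 without control heart 3. Wnt2b (ENSMUSG00000027840, chr3:104945272-104961921, minus strand) had counts of 44.2, 18.5 and 34.6 in control hearts and 45.2, 45.4 and 39.8 in treated hearts. Here control heart 2 was the low one, and the log2 fold change of 0.49 (SE 0.32) became 0.15 without it.

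The remaining ligands showed no separation by group. Wnt5a, which signals through Ror receptors in its best studied role, had 233, 159 and 245 in control hearts and 195, 201 and 208 in treated hearts, with a log2 fold change of -0.05 (SE 0.18). Wnt4, known from kidney and gonad development, had 170, 65.4 and 141 in control hearts and 114, 116 and 141 in treated hearts. Its log2 fold change was 0.08 (SE 0.32), and -0.01 without miR-19a/19b mimic heart 3. Its count is uncertain, since its transcripts aligned to transcripts of 413 other genes, over at most 188 bases and at up to 97.1% identity. In both genes the spread lay in the control group, where control heart 2 was the lowest. Wnt2, Wnt6, Wnt10b, Wnt1, Wnt7a and Wnt16 had means between 4.68 and 18, and their log2 fold changes ran from -0.55 (Wnt7a, SE 0.65) to 0.34 (Wnt2, SE 0.49). The estimate of Wnt7a rested on control heart 1, at 28.7 where the other 5 hearts lay between 3.9 and 9.28.

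The Frizzleds were the steadiest family. Fzd4 (ENSMUSG00000049791, chr7:89404355-89413134, plus strand), the receptor for norrin in vascular endothelium and a carrier of 1 seed match, had normalized counts of 2184, 2037 and 2492 in control hearts and 2670, 2220 and 2136 in treated hearts. The highest heart exceeded the lowest by 1.31-fold, the groups overlapped, and the log2 fold change was 0.06 (SE 0.12, 95% interval -0.22 to 0.35). Fzd1 (ENSMUSG00000044674) had 1148, 1135 and 1318 in control hearts and 1225, 969 and 1258 in treated hearts, with a log2 fold change of -0.07 (SE 0.13). Fzd2 (ENSMUSG00000050288) had 1218, 1224 and 1323 in control hearts and 1166, 1072 and 1786 in treated hearts. Treated heart 3 alone set its high end, and the log2 fold change of 0.06 (SE 0.18) became -0.17 without that heart.

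Fzd7 (ENSMUSG00000041075, chr1:59482424-59486955, plus strand), a close relative of Fzd1 and Fzd2, had the lowest estimate among the Frizzleds. Its normalized counts were 589, 629 and 610 in control hearts and 523, 446 and 604 in treated hearts. Only treated heart 3 reached the control range. Its log2 fold change was -0.23 (SE 0.13, 95% interval -0.51 to 0.06) and -0.33 without miR-19a/19b mimic heart 3, where the adjusted p from limma was 0.15, the smallest of its 15 alternatives (0.15 to 1).

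Fzd6, which acts in planar polarity, had normalized counts of 693, 547 and 679 in control hearts and 692, 627 and 557 in treated hearts, a log2 fold change of -0.03 (SE 0.13) that became 0.05 without miR-19a/19b mimic heart 3. Fzd8, with 1 seed match, had 443, 386 and 545 in control hearts and 498, 367 and 495 in treated hearts, a log2 fold change of -0.01 (SE 0.17). Fzd5, the closest relative of Fzd8, had 348, 372 and 547 in control hearts and 389, 299 and 460 in treated hearts, a log2 fold change of -0.13 (SE 0.21). In all 3 genes the groups overlapped, and no treated heart was the highest of the 6. Fzd9 and Fzd3 had means of 36.3 and 28.7, with log2 fold changes of -0.14 (SE 0.21) and -0.03 (SE 0.28). Fzd10, at a mean of 1.59, was at 0 in 2 hearts.

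Sfrp1 had the smallest unadjusted p of the members. Sfrp1 (ENSMUSG00000031548, chr8:23411502-23449632, plus strand) is a secreted Frizzled-related protein that binds Wnts and is made by fibroblasts. Its normalized counts were 5883, 7695 and 6507 in control hearts and 5241, 4335 and 5956 in treated hearts. Treated hearts 1 and 2 lay below every control heart, and treated heart 3 lay just above control heart 1, so the groups overlapped. The log2 fold change was -0.37 (SE 0.15, 95% interval -0.72 to -0.02, n = 3 per group), a fold of 0.772, with an unadjusted p of 0.0392 and an adjusted p of 1 from limma. Without miR-19a/19b mimic heart 3 the log2 fold change was -0.48 and the adjusted p from limma 0.0832, the smallest of its 15 alternatives (0.0832 to 1). Leaving out control heart 2 or miR-19a/19b mimic heart 2 brought the log2 fold change to -0.27 or -0.25.

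Sfrp2 (ENSMUSG00000027996, chr3:83766321-83774316, plus strand), also a fibroblast product with a role in cardiac repair and fibrosis, had normalized counts of 2265, 3584 and 3107 in control hearts and 3033, 2092 and 4379 in treated hearts. The lowest and the highest of the 6 values were both in treated hearts. The log2 fold change of 0.05 (SE 0.26, 95% interval -0.55 to 0.64) became -0.22 without miR-19a/19b mimic heart 3. Sfrp1 and Sfrp2 thus had estimates of opposite sign with all 6 hearts and of the same sign without that heart, and the difference between the genes was not tested. An antisense gene with a mean of 3.35 overlaps exons of Sfrp2.

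Sfrp4 (ENSMUSG00000021319, chr13:19623175-19632821, plus strand), an inhibitor first studied in bone and phosphate biology, carried 1 copy of the 8-mer seed match and had one of the largest higher estimates. Its normalized counts were 21, 10.7 and 21.5 in control hearts and 43, 19.6 and 32 in treated hearts. Treated hearts 1 and 3 lay above all control hearts, and treated heart 2 lay below 2 of them. The log2 fold change of 0.79 (SE 0.38) had an interval of -0.08 to 1.66 and an adjusted p of 1 from limma, and it became 0.48 without control heart 2. Sfrp5 had a mean of 3.57 and a log2 fold change of 0.70 (SE 0.73).

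Dkk3 (ENSMUSG00000030772, chr7:112116019-112159057, minus strand), with 1 seed match, had normalized counts of 1161, 1158 and 1433 in control hearts and 1323, 774 and 1092 in treated hearts. Treated heart 2 was the lowest by a wide margin and treated heart 1 lay within the control range. This corresponded to a log2 fold change of -0.26 (SE 0.19, 95% interval -0.69 to 0.16). Dkk2, which binds Lrp6, had counts of 119, 67.3 and 121 in control hearts and 76.4, 81.4 and 97.7 in treated hearts, with a log2 fold change of -0.23 (SE 0.25). Its control values enclosed all the treated values.

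The 7 members with a seed match had a median log2 fold change of -0.01, and the 22 without one had a median of -0.03. Over all genes the medians were -0.03 with a match (3070 genes) and 0.01 without (12796 genes). Of the 7, 4 had estimates below zero (Dkk3, Wnt9a, Fzd8 and Wnt1) and 3 above (Sfrp4, Fzd4 and Wnt5b). The members with the 8-mer were Wnt9a, at -0.01, and Sfrp4, at 0.79. The 8-mer of Sfrp4 lies in a transcript model that is longer than the exon length of 1756 bases listed by the authors for this gene.

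Several members were lowest or highest in the same heart, in both groups. Among the 24 members with a mean of at least 10, 10 (41.7%) were lowest in miR-19a/19b mimic heart 2, which was the lowest heart for 16.3% of all genes at that level. These were Sfrp1, Sfrp2, Dkk3, Fzd1, Fzd2, Fzd5, Fzd7, Fzd8, Wnt5b and Wnt6. Control heart 2 was lowest for 8 (33.3%, against 15.6% of all genes), which were Wnt2, Wnt2b, Wnt4, Wnt5a, Dkk2, Sfrp4, Fzd4 and Fzd6. Control heart 3 was highest for 8 (33.3%, against 10.3%). Other hearts held fewer members than the background, with miR-19a/19b mimic heart 1 lowest for 0 (against 18.7%). The heart that stood apart, miR-19a/19b mimic heart 3, was lowest for 3 (12.5%, against 26.7%) and highest for 3 (12.5%, against 24.7%). These counts describe the hearts, were made after the values were seen and were not tested.

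Marker lists of cell types differed between the same hearts. In miR-19a/19b mimic heart 2, 4 of 5 activated fibroblast markers (Postn, Cthrc1, Acta2 and Comp) were lowest and the list summed to 65675, against 78736 to 107202 in the others, beside the low Sfrp1, Sfrp2, Dkk3, Fzd1 and Fzd2. The general fibroblast sum was also lowest in that heart, at 247137 against 275076 to 434023 in the others. The mean log2 level of that list was not low, at 0.02 relative to the control mean. Of its 6 markers, 2 (Pdgfra and Col1a1) were lowest there, and Gsn was highest of all hearts at 14177. In control heart 2, Wt1, Upk3b, Msln, Krt19 and Upk1b were lowest, beside the low Wnt2, Wnt2b, Wnt4 and Wnt5a. The endothelial sum was also lowest there, at 20240. In miR-19a/19b mimic heart 3, the cardiomyocyte list was lowest, beside the low Wnt9a and Wnt11. The smooth muscle and pericyte sum (9160) and the erythrocyte sum (1834) were lowest there too. Wnt11 was also low in miR-19a/19b mimic heart 2, at 186, where the cardiomyocyte sum was high, at 679749. By group, the activated fibroblast sum ran from 78736 to 107202 in control hearts and from 65675 to 86574 in treated hearts, the epicardial sum from 598 to 1083 and from 985 to 1233, and the cardiomyocyte sum from 427053 to 555412 and from 261847 to 769180. Of the immune lists, all 5 T cell markers had lower estimates (median log2 fold change -0.59, 3 without overlap), and 4 of 5 macrophage and monocyte markers did (median -0.26, 1 without overlap). So did all 4 neutrophil markers (median -0.39, 1 without overlap) and 3 of 4 B cell markers (median -0.20, 0 without overlap). Over all genes 9.2% were without overlap. The macrophage and monocyte, neutrophil and B cell sums were highest of all hearts in miR-19a/19b mimic heart 3 (66700, 2181 and 227). In control hearts these sums ran from 52507 to 60250, 1434 to 1682 and 133 to 160. The T cell sum ran from 177 to 239 in control hearts and from 123 to 156 in treated hearts. The part of these cell types in the members' values was not tested.

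**Figure D4:**
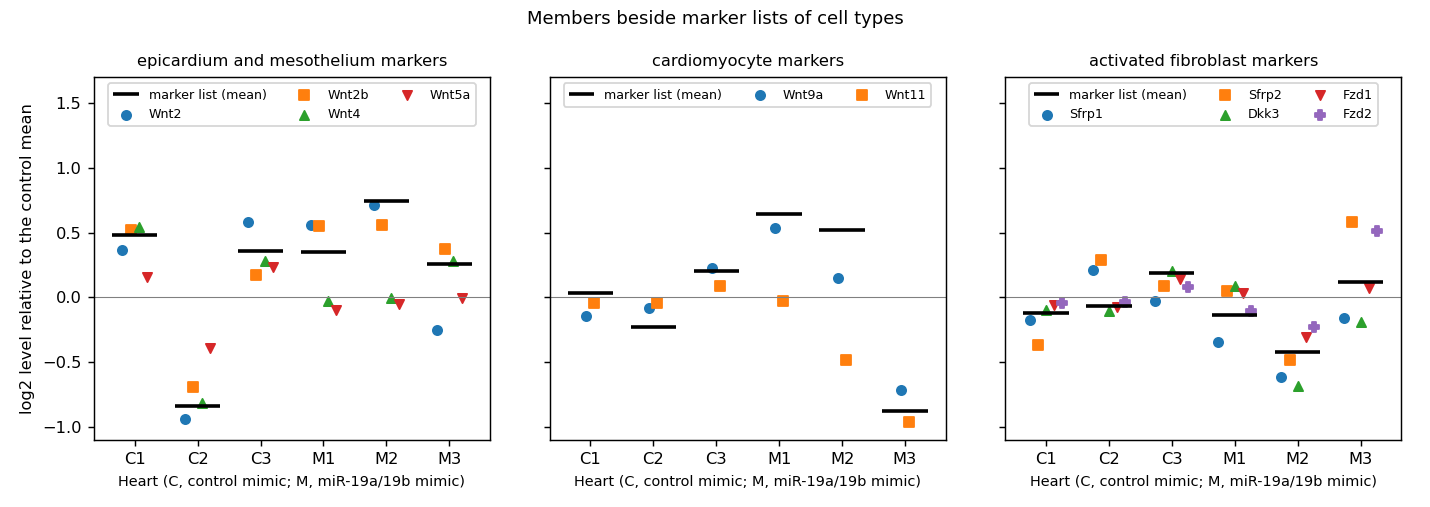
Log2 level relative to the control mean for members (coloured points) and the mean of a marker list (black bars) in control mimic (C1 to C3) and miR-19a/19b mimic (M1 to M3) hearts. Wnt2, Wnt2b, Wnt4 and the epicardial list are lowest in C2, Wnt9a, Wnt11 and the cardiomyocyte list in M3, and Sfrp1, Sfrp2, Dkk3, Fzd1 and the activated fibroblast list in M2. Members were chosen for the plot after their values were seen.

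The rest of the Wnt pathway was examined with 8 lists that held 80 further genes, of which 78 were in the table and 76 were tested. With limma none was called at an adjusted p under 0.05, and 6 (7.89%) had an unadjusted p under 0.05, 4 lower and 2 higher, against 4.01% of all genes. Groups without overlap were found for 6 (5 lower and 1 higher, 7.89%, against 9.2% of all genes). The median log2 fold change was -0.03.

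Among the central genes of the pathway, beta-catenin and Lrp6 were narrowly bounded and Axin2 and Rspo3 were not. Ctnnb1, which encodes beta-catenin, had normalized counts of 11128, 11689 and 11084 in control hearts and 11428, 11402 and 11348 in treated hearts, with a log2 fold change of 0.01 (SE 0.12, 95% interval -0.26 to 0.28). The coreceptor Lrp6 had a log2 fold change of -0.11 (SE 0.11), with 1880, 2154 and 2133 in control hearts and 2080, 1859 and 1795 in treated hearts. Axin2, the most widely used reporter gene of beta-catenin signalling, had 64.1, 47.8 and 86.9 in control hearts and 91.5, 80.4 and 29.4 in treated hearts. Its treated hearts spanned the whole range, and its estimate of -0.10 (log2, SE 0.41) had a 95% interval from 0.488-fold to 1.79-fold and became 0.41 without miR-19a/19b mimic heart 3. Rspo3, an R-spondin that raises Wnt sensitivity, was low and scattered, with a mean of 13.9 and a log2 fold change of -0.21 (SE 0.52, 95% interval -1.39 to 0.97), which was -0.61 without miR-19a/19b mimic heart 3.

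Of the 14 tested genes on the list of common beta-catenin targets, 1 (7.14%) had an unadjusted p under 0.05, against 4.01% of all genes. This was Rnf43, a ubiquitin ligase that removes Frizzleds from the membrane, with 12.2, 8.78 and 9.34 in control hearts and 2.15, 5.15 and 3.46 in treated hearts. All treated hearts lay below all control hearts, at a log2 fold change of -1.31 (SE 0.41), with an adjusted p of 1 from limma and few reads behind each value. The list held 2 genes without overlap (14.3%, against 9.2% of all genes), Rnf43 and Znrf3 (log2 fold change -0.15, SE 0.14).

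Among other secreted inhibitors, the estimates for Frzb and Wif1 had opposite signs. Frzb (Sfrp3), a member of the Sfrp family by sequence though not by symbol, is made by fibroblasts and cartilage. It had normalized counts of 1210, 1549 and 1264 in control hearts and 1144, 853 and 1084 in treated hearts. All 3 treated hearts lay below the control hearts, at a log2 fold change of -0.39 (SE 0.14, 95% interval -0.71 to -0.06), with an adjusted p of 1 from limma. Wif1, which binds Wnts directly, had 3.32, 5.86 and 5.61 in control hearts and 20.4, 29.9 and 5.19 in treated hearts. Treated hearts 1 and 2 were far above the controls and treated heart 3 lay among them. Its log2 fold change was 1.46 (SE 0.59, adjusted p of 1 from limma) and 2.15 without miR-19a/19b mimic heart 3, where its adjusted p of 0.0346 passed the threshold, the only one of 13 alternatives that did (0.0346 to 1).

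Ror1, a Wnt5a receptor with a kinase-like domain, had normalized counts of 480, 348 and 474 in control hearts and 379, 285 and 336 in treated hearts (log2 fold change -0.37, SE 0.16). Nkd2, an antagonist that binds Dishevelled, had 368, 591 and 496 in control hearts and 369, 289 and 305 in treated hearts (log2 fold change -0.58, SE 0.18). The treated values of both genes were mostly the lower ones, and in each gene 1 control heart lay within the treated range. Tle2, a Groucho corepressor, had 291, 348 and 374 in control hearts and 378, 415 and 538 in treated hearts, without overlap (log2 fold change 0.38, SE 0.16). For none of the 3 did limma give an adjusted p below 1.

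Without miR-19a/19b mimic heart 3, limma called 3 of the 76 tested further genes, where 154 of all 21126 genes were called lower and 361 higher. All 3 are genes in which that heart lay on the other side of the control hearts or among them. Beside Wif1 they were Lgr6, an R-spondin receptor, and Wisp1, a matricellular beta-catenin target, both named after their values were seen. Lgr6 had 334, 344 and 326 in control hearts and 559, 534 and 230 in treated hearts, and its log2 fold change went from 0.29 (SE 0.30, adjusted p of 1 from limma) to 0.71 (adjusted p of 0.011 from limma). Wisp1 had 1443, 1517 and 1560 in control hearts and 1173, 1059 and 1604 in treated hearts, and its log2 fold change went from -0.26 (SE 0.15, adjusted p of 1 from limma) to -0.43 (adjusted p of 0.0363 from limma). No other alternative called Lgr6 or Wisp1, and no member was called without that heart.

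**Figure D5:**
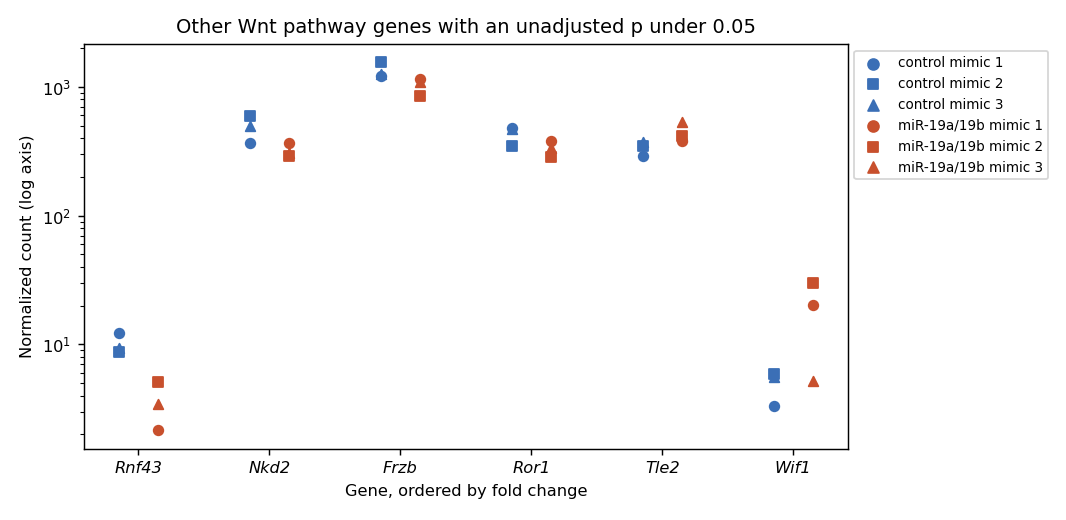
Normalized count (log axis) per heart of the 6 further Wnt pathway genes with an unadjusted p under 0.05, control mimic in blue and miR-19a/19b mimic in red. Rnf43, Frzb and Tle2 show groups without overlap, while in Nkd2, Ror1 and Wif1 at least 1 heart lies in the range of the other group.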

How the data were processed

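Ventricular RNA of 6 hearts was sequenced after poly-T selection (NEBNext Ultra kit). Per the submitters' processing notes, the authors aligned reads with STAR 2.5.1b, counted them on genes with HTSeq 0.6.0 and used DESeq2 1.10.1, while the study's methods name edgeR for differential expression. The deposited signal is a normalized count, scaled by the authors with 1 size factor per library (0.9048 to 1.1568), and 100% of values were whole multiples of 1 read within a tolerance of 0.01, so reads were recovered. The deposited fold changes and p-values of the authors' own comparison were not used. The notes name mm9, while 82.7% of 25884 identifiers found had the start and end of GENCODE M21 (GRCm38), so coordinates are GRCm38.

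The main test was limma 3.58.1 (R 4.3.3) on log2(normalized count + 1), two-sided, with a trended prior, over 21126 genes with a mean of at least 1 and with Benjamini-Hochberg adjustment over all of them. Calls were made at an adjusted p under 0.05. Fold changes on this scale understate changes of low genes. The p-values weigh the group difference against the spread between these hearts, with each gene's variance drawn toward a trend over all genes. Alternatives were edgeR 4.0.16 and DESeq2 1.42.0 on recovered reads, limma-voom, other filters and pseudocounts (0.1 and 5), a replicate block, and each heart left out. TMM factors in limma and GENCODE exon lengths were added after the data were seen. Levels per kilobase used deposited normalized counts and the exon length listed by the authors, in place of the planned scaling by library total. Scripts were tested on simulated data.

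Members and lists were chosen with earlier results of these data known. Values per heart are given for the 10 members with the highest mean, those with an unadjusted p under 0.05, the 3 largest higher and lower estimates at a mean of at least 10, and those with a seed match at that mean. Of the other pathway genes, those with an unadjusted p under 0.05 and Axin2, Ctnnb1, Lrp6, Wif1, Frzb and Rspo3 are named. Wnt4, Wnt5a, Wnt7a, Dkk2, Lgr6, Wisp1 and Znrf3 were added after their values were seen. Rspo2 and Sostdc1 were under a mean of 1, and Rspo4 and Cer1 were not analysed here. Wisp1 (now Ccn4) is listed under both symbols and was counted once.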

Additional observations from a re-analysis of the deposited data

How the results depend on the processing

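No member was called under any of the 15 alternatives. The 2 members lower at an unadjusted p under 0.05 became 1 with edgeR, DESeq2, a minimum of 10 reads in every heart or a pseudocount of 5, and 0 to 2 when single hearts were left out, with 0 to 1 higher in place of 0. The median log2 fold change of members ran from -0.09 to 0.10 with single hearts left out. Over all genes, DESeq2 called 28 lower and 1 higher in place of 0, and 177 were higher at an unadjusted p in place of 293 (147 with a minimum of 10 reads). With single hearts left out, 0 to 154 genes were called lower and 0 to 361 higher, the high ends without miR-19a/19b mimic heart 3, and at an unadjusted p 372 to 1293 were lower and 215 to 1777 higher. The other pathway genes at an unadjusted p, 4 lower and 2 higher, became 2 lower and 1 higher with a minimum of 10 reads, 1 higher with limma-voom, and 2 to 7 lower and 0 to 5 higher with single hearts left out, with 0 to 1 called lower and 0 to 2 called higher. The cause of these shifts was not tested. Leaving hearts out also uses fewer samples, and the minimum of 10 reads tests fewer genes.

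The sign turned for 11 of the 26 named results. Wnt9a became 0.06 with edgeR and DESeq2, and Axin2 became 0.01 with DESeq2. With single hearts left out the log2 fold change ran from -0.14 to 0.05 for Fzd1, -0.17 to 0.20 for Fzd2, -0.03 to 0.14 for Fzd4, -0.28 to 0.07 for Fzd5, -0.14 to 0.05 for Fzd6, -0.13 to 0.13 for Fzd8, -0.22 to 0.31 for Sfrp2, -0.07 to 0.12 for Wnt5b, -0.29 to 0.34 for Wnt9a, -0.61 to 0.28 for Rspo3 and -0.39 to 0.41 for Axin2. The other 15 kept their sign. The ratio of the Sfrp to the Wnt sum, 10.9 with the listed lengths, was 11 with GENCODE M21 exons and 10.4 with the longest transcript.

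Hearts with the same replicate number did not deviate together (correlations of -0.01, -0.02 and -0.11), so the numbers were not used as pairs. With the replicate number as a block, 0 of 29 members were lower and 1 higher (Sfrp4) at an unadjusted p under 0.05. Of all 21126 genes, 434 were lower and 207 higher at that threshold. No member and no other gene was called.

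Depth limits the members with a mean under 10, and differences under about 1.32-fold were within the median interval even at means from 100 to 1000.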
